A study of Homo sapiens with 4 samples.

Results

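Integrins are the receptors by which a cell holds its surrounding matrix. Each is a pair of an alpha and a beta chain, and the pairing decides which ligand is bound. Laminin is bound by alpha3beta1, alpha6beta1 and alpha6beta4, collagen by alpha2beta1, fibronectin by alpha5beta1 and alpha4beta1, and vitronectin by alphaVbeta3 and alphaVbeta5. Inside the cell, talins and kindlins bind the beta tail and switch the receptor on. The ILK, PINCH and parvin complex, paxillin, focal adhesion kinase, zyxin and tensins then join it to actin and to signalling. A list of 40 genes of this structure was set by gene name, with no threshold on the values. Earlier results of these data were known when it was set. Of the 40 genes, 39 were measured among 18417 genes in all. ITGA1 was not, since its probe set also carries the symbol of another gene.

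The data are Affymetrix arrays labelled as PC3, a prostate cancer line grown from a bone metastasis. The 2 PC3-PDEF arrays are described as RNA of cells stably made to express PDEF, an ETS transcription factor. The 2 PC3-SCR arrays are described as RNA of cells with the empty vector pBABE. The labels call this control PC3-SCR while the treatment text gives it an empty vector, and the study's text names the same cells VC-PC3 and PDEF-PC3. All cells were grown in the same medium with fetal bovine serum. Neither the labels nor the study's methods say whether a cell pool or a single clone was used, or whether each array had a culture of its own. The p-values may therefore rest on technical spread alone. Groups were compared with limma, a gene was called at a Benjamini-Hochberg adjusted p under 0.05 over all genes, and errors are standard errors of the log2 fold change. With 2 arrays in each group, the smallest two-sided p of an exact permutation test is 0.333.

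SPDEF, the gene of PDEF, had signals of 6.85 and 6.73 in PC3-PDEF and of 5.99 and 6.06 in PC3-SCR. It rose by 0.77 on the log2 scale (adjusted p = 0.000563, limma). STAT3 and CTNNA1 are known to be deleted in PC3. Signals of STAT3 were 4.51 and 4.70 in PC3-SCR and 9.06 and 9.05 in PC3-PDEF, and those of CTNNA1 were 4.77 and 4.07 against 9.76 and 9.86. The PC3-PDEF arrays thus go against their cell line label at both genes, so PC3-PDEF and PC3-SCR are used below as the names of the arrays. PDEF and whatever else separates the groups cannot be told apart for any gene below. As a gauge of background, the highest of 341 olfactory receptor genes reached 5.94 and 6.01 in PC3-SCR and 5.65 and 5.75 in PC3-PDEF. SPDEF in PC3-SCR was only just above this gauge, so the size of its rise is not exact. Of the epithelial markers KRT8, KRT18, EPCAM and CDH1, 3 were above the gauge on both PC3-SCR arrays and 2 on both PC3-PDEF arrays. None of 4 leukocyte or 4 endothelial markers was above it on both arrays of a group. In the fibroblast, kidney and prostate lineage lists below, COL1A1 and HOXB13 were so in both groups and PAX8 in PC3-SCR alone. No other gene of these lists, KLK3 included, was above it on both arrays of a group. Signals of each marker list were also summed on the linear scale, where several dim genes can together pass the gauge. The log2 of the sum was taken. For the epithelial list it ran from 10.80 to 10.86 in PC3-SCR and from 10.22 to 10.32 in PC3-PDEF. For 4 fibroblast genes led by COL1A1 it was 8.76 to 9.0 and 7.72 to 7.88. For 4 kidney lineage genes it was 7.64 to 7.73 and 7.34 to 7.43, and for the endothelial list 6.30 to 6.48 and 6.0 to 6.06. For 2 of 4 prostate lineage genes that were measured, KLK3 and HOXB13, it was 6.99 to 7.07 and 7.05. The part of these shifts in the results below was not tested.

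The adhesion genes were mostly lower in PC3-PDEF, and a few integrin chains were higher. Among the 39 genes there were 23 falls, 6 rises and 10 genes that missed the threshold, so 74.4% were called, beside 50.7% of all genes. That is 59.0% lower and 15.4% higher, where 24.0% of all genes were lower and 26.7% higher. Changes of at least 2-fold were found for 15 that fell and 2 that rose, beside 6.07% and 8.67% of all genes. The median log2 fold change was -0.53, against -0.05 over all genes. For 35 of the 39 genes the groups had no overlap, which held for 74.7% of all genes. All 6 that rose encode integrin chains, and the 15 intracellular proteins gave 11 falls and no rise. Of the 39, 15 were not above the olfactory gauge on both arrays of either group, all but TNS1 integrin chains. These dim genes gave 6 falls (40.0%) and 3 rises (20.0%), those of ITGA7, ITGA8 and ITGB8. The other 24 gave 17 falls (70.8%) and 3 rises (12.5%). Brighter genes were called more often, at 75.3% in a fit of genes above the median level alone. Of the 19 members in that fit 15 were lower and 1 higher, where 32.7% of genes were lower and 42.7% higher. Fewer cells of a type and less RNA per cell cannot be told apart in such bulk samples.

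**Figure D1:**
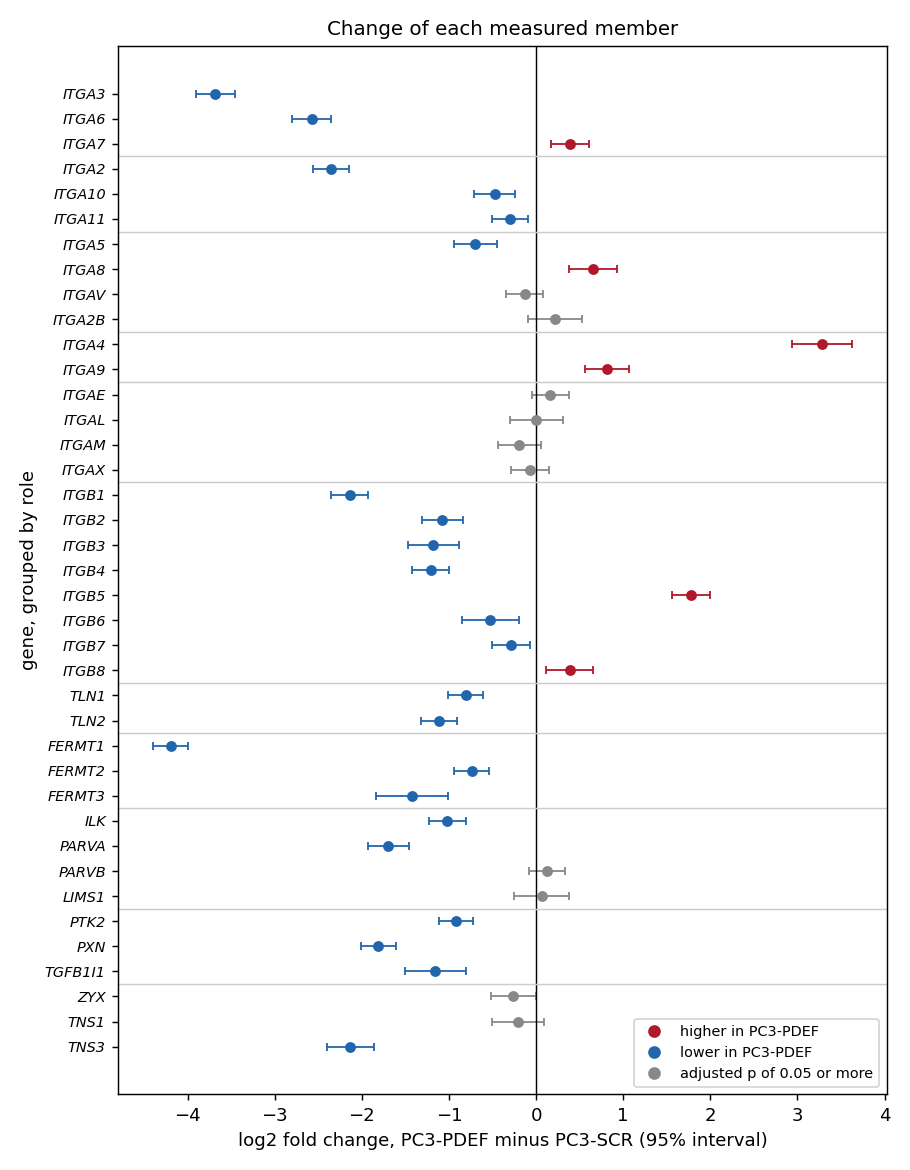
Log2 fold change between PC3-PDEF and PC3-SCR (horizontal axis) of the 39 measured genes (vertical axis, grouped by role), with the 95% interval as a bar and 2 arrays per group. FERMT1 at -4.20 and ITGA3 at -3.68 lie farthest on the lower side (blue), ITGA4 at 3.28 and ITGB5 at 1.78 farthest on the higher side (red), and the 10 genes that did not pass the test are grey.

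Both bright alpha chains of laminin receptors fell. ITGA3, the alpha chain of the main laminin-332 receptor alpha3beta1, had signals of 10.74 and 10.65 in PC3-SCR and of 7.09 and 6.94 in PC3-PDEF. On the log2 scale it fell by 3.68 (standard error 0.094, adjusted p = 3.03e-06, limma), a 12.8-fold lower level. ITGA6, whose chain forms hemidesmosome and laminin receptors, had signals of 11.07 and 11.05 in PC3-SCR and of 8.40 and 8.57 in PC3-PDEF. It fell by 2.58 (standard error 0.093, adjusted p = 6.40e-06), a 5.96-fold lower level. Both genes stayed above the olfactory gauge on all 4 arrays. ITGB4, the hemidesmosome partner of ITGA6, gave 6.22 on both PC3-SCR arrays and 4.94 and 5.08 in PC3-PDEF, where it was not above the gauge. It fell by 1.21 (standard error 0.089, adjusted p = 8.18e-05), and taken against the gauge, as the mean over both arrays of the dimmer group here and below, the level was at least 1.43-fold lower. ITGA7, a laminin receptor chain known mainly from muscle, was dim in both groups (5.35 and 5.22 against 5.65 and 5.70). It rose by 0.39, with adjusted p of 0.0672, 0.0827 and 0.105 without PC3-SCR replicate 2, PC3-PDEF replicate 1 and PC3-PDEF replicate 2.

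ITGB1 encodes the beta chain shared by most laminin, collagen and fibronectin receptors, so its level bears on many pairs at once. Its signals were 11.51 and 11.64 in PC3-SCR and 9.42 and 9.45 in PC3-PDEF. It fell by 2.14 (standard error 0.088, adjusted p = 9.76e-06), a 4.41-fold lower level. ITGA2, the collagen receptor chain of epithelia and platelets, had signals of 8.93 and 9.01 in PC3-SCR and of 6.58 and 6.65 in PC3-PDEF. It fell by 2.36 (standard error 0.085, adjusted p = 6.39e-06), a 5.12-fold lower level. For both genes the groups stood far apart and all 4 arrays were above the gauge. The other collagen receptor chains measured, ITGA10 and ITGA11, lay below the gauge on all arrays, at 4.33 to 4.94. ITGA10 fell by 0.47 and ITGA11 fell by 0.29. The call of ITGA11 was lost without any 1 of the 4 arrays (adjusted p from 0.0699 to 0.114), and that of ITGA10 without PC3-SCR replicate 1 (0.0547), PC3-PDEF replicate 1 (0.0865) or PC3-PDEF replicate 2 (0.109).

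Chains that bind the RGD motif of fibronectin and vitronectin moved in both directions. ITGA5, the fibronectin receptor chain, had signals of 9.20 and 8.98 in PC3-SCR and of 8.38 and 8.41 in PC3-PDEF. It fell by 0.69 (adjusted p = 0.00157), with adjusted p of 0.0648 without PC3-PDEF replicate 1 and 0.0626 without PC3-PDEF replicate 2. ITGAV, the alpha chain shared by the vitronectin receptors, gave 8.92 and 8.87 against 8.71 and 8.82. The difference on the log2 scale was -0.13, with a 95% interval from -0.34 to 0.08 (adjusted p = 0.256). The beta chains that pair with alphaV moved in both directions. ITGB5 had signals of 5.66 and 5.63 in PC3-SCR, not above the gauge, and of 7.5 and 7.35 in PC3-PDEF. It rose by 1.78 (standard error 0.090, adjusted p = 2.09e-05), at least 2.73-fold against the gauge. ITGB3, the other vitronectin receptor beta chain, gave 5.73 on both PC3-SCR arrays and 4.39 and 4.71 in PC3-PDEF. It fell by 1.18 (standard error 0.12, adjusted p = 0.000326) with no array above the gauge, so the size is not exact. ITGB6 and ITGB8, whose alphaV pairs are known to activate latent TGF-beta, were dimmer still (3.15 to 4.66). ITGB6 fell by 0.53 and ITGB8 rose by 0.39. ITGB6 lost its call without either PC3-SCR array or without PC3-PDEF replicate 1 (adjusted p from 0.0752 to 0.186), and ITGB8 without either PC3-SCR array or without PC3-PDEF replicate 2 (from 0.140 to 0.209). ITGA8, below the gauge on all arrays at 3.38 to 4.18, rose by 0.65. Without PC3-SCR replicate 1 or 2 it lost its call, with log2 fold changes of 0.645 and 0.655. ITGA2B, the platelet fibrinogen receptor chain, gave 5.20 to 5.61 and a log2 fold change of 0.21 (adjusted p = 0.208, and 0.0485 without PC3-SCR replicate 1).

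ITGA4 and ITGA9, a pair of related chains that join ITGB1 and bind VCAM1 and fibronectin, both rose. ITGA4 had the largest measured log2 rise of the list, from signals of 4.59 and 4.18 in PC3-SCR, not above the gauge, to 7.69 and 7.64 in PC3-PDEF. It rose by 3.28 (standard error 0.14, adjusted p = 1.16e-05), and taken against the gauge the level was at least 3.23-fold higher. ITGA9 gave 4.93 and 5.17, not above the gauge, against 5.86 and 5.87. It rose by 0.81 (adjusted p = 0.000886), a size that is not exact and allows no fold bound, since the PC3-PDEF signals were below the gauge of PC3-SCR. Its call was lost, with adjusted p of 0.0538 without PC3-PDEF replicate 1 and 0.0569 without PC3-PDEF replicate 2.

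The chains of leukocytes were at background. ITGAE, ITGAL, ITGAM and ITGAX had signals between 3.46 and 4.86, below the gauge on all arrays, and none of them passed the test (log2 fold changes from -0.19 to 0.17). ITGB2, the beta chain common to leukocyte integrins, nevertheless fell by 1.07 (standard error 0.098, adjusted p = 0.000201), from 5.81 and 5.78 to 4.62 and 4.82. Those PC3-SCR signals were not above the gauge either, so the size is not exact. ITGB7, the lymphocyte homing chain, gave 5.03 on both PC3-SCR arrays against 4.67 and 4.82. It fell by 0.28, a call lost without any 1 of the 4 arrays (adjusted p from 0.0629 to 0.149). The log2 of the summed linear signal of the leukocyte markers PTPRC, CD3E, CD14 and SPI1 was 6.69 to 6.81 in PC3-SCR and 6.46 to 6.62 in PC3-PDEF. None of these markers passed the test.

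**Figure D2:**
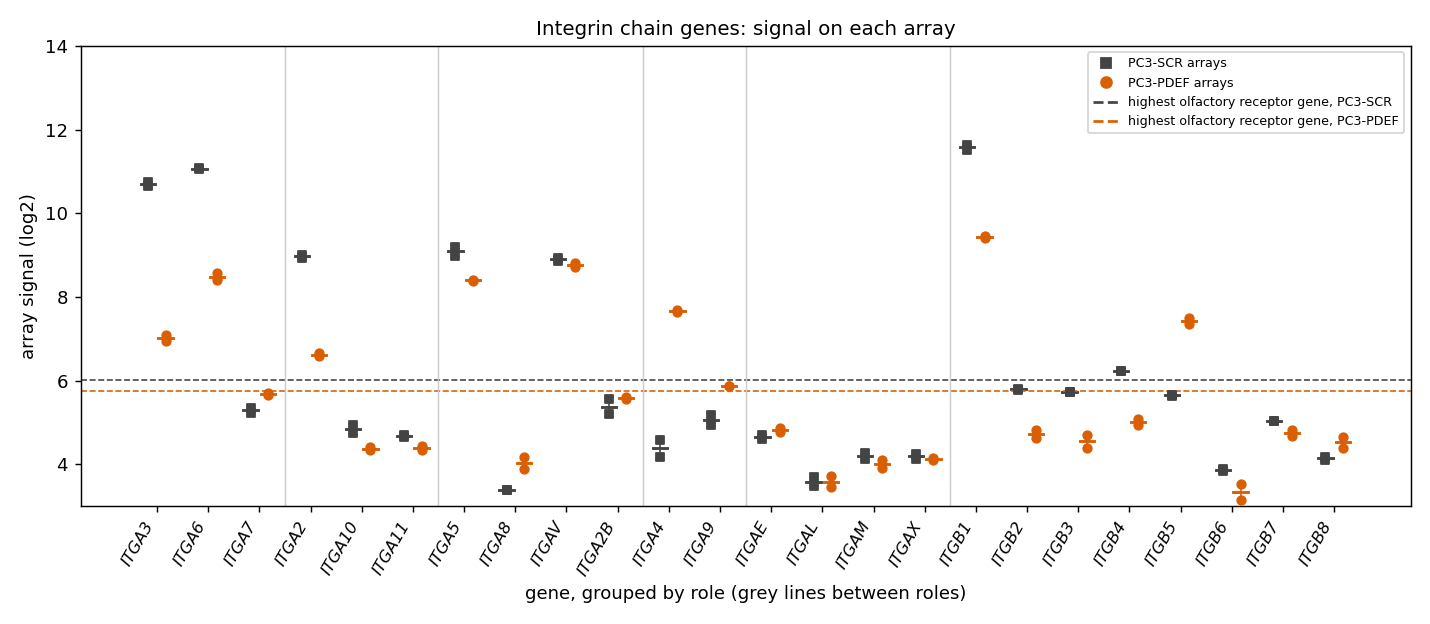
Log2 array signal (vertical axis) of the 24 measured integrin chain genes (horizontal axis) on the PC3-SCR (squares) and PC3-PDEF arrays (circles). Lines are group means and bars SDs (n = 2). ITGA3, ITGA6, ITGA2 and ITGB1 lie above the dashed gauge lines (6.01 and 5.75, the higher array of each group) in both groups and lower in PC3-PDEF, while ITGA4 and ITGB5 lie above them in PC3-PDEF alone.

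Bases upstream of the start site are shown, since PDEF binds DNA at an ETS core. They are those of the integrin chains with the largest rises and falls among members with a RefSeq promoter entry. An entry was found for 28 of the 39 genes (GRCh38.p14), and FERMT1, ITGA3, ITGA7, ITGA9, ITGAL, ITGAX, ITGB2, ITGB3, ITGB4, PARVA and PTK2 had none. The sequences run 5′ to 3′ on the strand of the gene and stop before its annotated span, and capitals mark a match to CCGGAT or CCGGAA (ETS cores), GGAATG (the TEAD site) or TGANTCA (the AP-1 site) on either strand. They are chr2:181457136-181457204 (plus strand, 69 bases) for ITGA4, chr3:124901419-124901668 (minus strand) for ITGB5, chr2:172427086-172427335 (plus strand) for ITGA6 and chr5:52989102-52989351 (plus strand) for ITGA2.
ITGA4: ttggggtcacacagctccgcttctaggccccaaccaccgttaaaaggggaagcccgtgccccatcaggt
ITGB5: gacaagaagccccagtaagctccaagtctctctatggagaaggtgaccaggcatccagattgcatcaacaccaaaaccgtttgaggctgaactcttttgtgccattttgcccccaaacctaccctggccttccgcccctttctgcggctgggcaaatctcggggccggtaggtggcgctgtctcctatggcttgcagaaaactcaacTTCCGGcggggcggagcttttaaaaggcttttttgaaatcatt
ITGA6: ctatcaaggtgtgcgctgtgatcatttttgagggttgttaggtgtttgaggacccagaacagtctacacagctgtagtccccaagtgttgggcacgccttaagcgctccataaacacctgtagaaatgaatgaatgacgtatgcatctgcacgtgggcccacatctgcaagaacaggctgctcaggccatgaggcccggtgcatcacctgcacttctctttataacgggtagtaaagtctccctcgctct
ITGA2: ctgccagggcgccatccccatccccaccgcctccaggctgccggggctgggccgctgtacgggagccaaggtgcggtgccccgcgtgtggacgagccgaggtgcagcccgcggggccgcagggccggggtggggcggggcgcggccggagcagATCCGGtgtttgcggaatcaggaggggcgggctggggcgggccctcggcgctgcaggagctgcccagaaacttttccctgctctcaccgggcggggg
ITGB5, which rose, held CCGGAA on the opposite strand, starting 43 bases upstream of the start site. ITGA2, which fell, held CCGGAT on the opposite strand, starting 97 bases upstream. No match was found in the stretches of ITGA4 and ITGA6. The ITGA4 stretch ends short of the start site of its entry, which lies within the annotated span of the gene. In the full 250 bases, CCGGAT was found in 4 of the 28 members (14.3%) and in 7.11% of 14239 measured genes with an entry, and CCGGAA in 4 (14.3%) and 19.5%. GGAATG was found in 3 members (10.7%) and in 10.1% of the genes. TGANTCA was found in no member and in 4.87% of the genes. CCGGAA and GGAATG can overlap, and both are then counted. The motifs were chosen after the values were seen. A match is only these letters in a window, not shown to be bound.

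The talins and kindlins, which switch integrins on, all fell. FERMT1 encodes kindlin-1, the kindlin of epithelia, and had the largest change of the whole list. Its signals were 9.69 and 9.63 in PC3-SCR and 5.46 and 5.47 in PC3-PDEF, where it was not above the gauge. It fell by 4.20 (standard error 0.081, adjusted p = 2.50e-06, limma), at least 15.6-fold against the gauge. FERMT2, the gene of the broadly expressed kindlin-2, gave 9.21 and 9.20 against 8.43 and 8.5. It fell by 0.74 (standard error 0.082, adjusted p = 0.000458), a 1.67-fold lower level. The 95% intervals of the log2 fold change ran from -4.39 to -4.00 for FERMT1 and from -0.94 to -0.54 for FERMT2 and do not meet. FERMT3, the kindlin gene of blood cells, gave 6.67 and 6.19 in PC3-SCR against 4.89 and 5.12, not above the gauge. It fell by 1.43 (standard error 0.17, adjusted p = 0.000651), at least 1.66-fold against the gauge, with adjusted p of 0.0658 without PC3-PDEF replicate 1 and 0.0533 without PC3-PDEF replicate 2. As for ITGB2, none of the leukocyte markers was above the gauge on both arrays of either group. TLN1, the widely expressed talin gene, gave 8.96 and 8.88 against 8.13 and 8.10, and fell by 0.81 (adjusted p = 0.000337). TLN2, its paralog, gave 6.45 and 6.34 against 5.28 on both PC3-PDEF arrays. It fell by 1.11 (standard error 0.085, adjusted p = 9.74e-05), at least 1.62-fold against the gauge.

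Within the complex of ILK, PINCH and parvin, which couples kindlin-bound integrins to actin, only part of the genes fell. ILK, the pseudokinase at its centre, gave 9.66 and 9.56 in PC3-SCR and 8.63 and 8.55 in PC3-PDEF. It fell by 1.02 (standard error 0.087, adjusted p = 0.000155), a 2.03-fold lower level. PARVA, the gene of alpha-parvin, gave 9.11 and 8.91 against 7.32 and 7.31. It fell by 1.70 (standard error 0.098, adjusted p = 3.25e-05), a 3.24-fold lower level. Its paralog PARVB gave 7.35 and 7.25 against 7.41 and 7.44. The log2 fold change of PARVB was 0.12 (adjusted p = 0.264), and its 95% interval, from -0.08 to 0.33, lies apart from that of PARVA, from -1.93 to -1.46. LIMS1, the gene of PINCH1, gave 8.77 and 9.13 against 9.02 and 9.01, and its groups overlapped. The difference was 0.07 on the log2 scale, with a 95% interval from -0.25 to 0.38 (adjusted p = 0.709). Near-identical LIMS copies share other probe sets with it, so signal of the copies on this one cannot be told apart. The direction of LIMS1 turned after median centring (-0.005) and without PC3-SCR replicate 1 (-0.12).

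The genes of focal adhesion kinase, paxillin and a paxillin relative all fell. PTK2 encodes focal adhesion kinase and gave 10.30 and 10.28 in PC3-SCR against 9.37 on both PC3-PDEF arrays. It fell by 0.92 (standard error 0.080, adjusted p = 0.000162), a 1.89-fold lower level. PXN, the gene of the scaffold paxillin, gave 8.84 and 8.77 against 7.01 and 6.98. It fell by 1.81 (standard error 0.082, adjusted p = 1.44e-05), a 3.51-fold lower level. A second, dimmer PXN probe set, with signals of 6.13 and 5.90 against 5.77 and 5.49, differed by -0.39 only, and the mean of both gave -1.10. TGFB1I1, the gene of the paxillin relative Hic-5, gave 8.0 and 7.57 against 6.66 and 6.60. It fell by 1.16 (standard error 0.15, adjusted p = 0.000839), with adjusted p of 0.0656 without PC3-PDEF replicate 1 and 0.0735 without PC3-PDEF replicate 2.

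Of the actin-side genes, TNS3 fell and ZYX and TNS1 did not pass the test. TNS3 encodes a tensin, which binds the beta tail and actin, and gave 8.07 and 7.81 in PC3-SCR against 5.75 and 5.87. It fell by 2.13 (standard error 0.11, adjusted p = 2.49e-05), a 4.38-fold lower level. TNS3 in PC3-PDEF was only just above the gauge of those arrays (5.65 and 5.75), so this size is not exact. Its paralog TNS1 gave 5.61 and 5.32 against 5.34 and 5.17, below the gauge, with a log2 fold change of -0.21 (adjusted p = 0.207). ZYX, the gene of the tension-sensitive LIM protein zyxin, gave 8.47 and 8.23 against 8.10 and 8.08. The difference was -0.26 on the log2 scale with an adjusted p of 0.0820 (limma). The adjusted p became 0.0251 after quantile normalization, 0.0365 after median centring, 0.0336 among genes above the median level alone and 0.0283 with a variance trend. It was 0.0814 with probe set means and 0.111 with the replicate number as a block. With 1 array left out, the difference ran from -0.38 to -0.14.

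**Figure D3:**
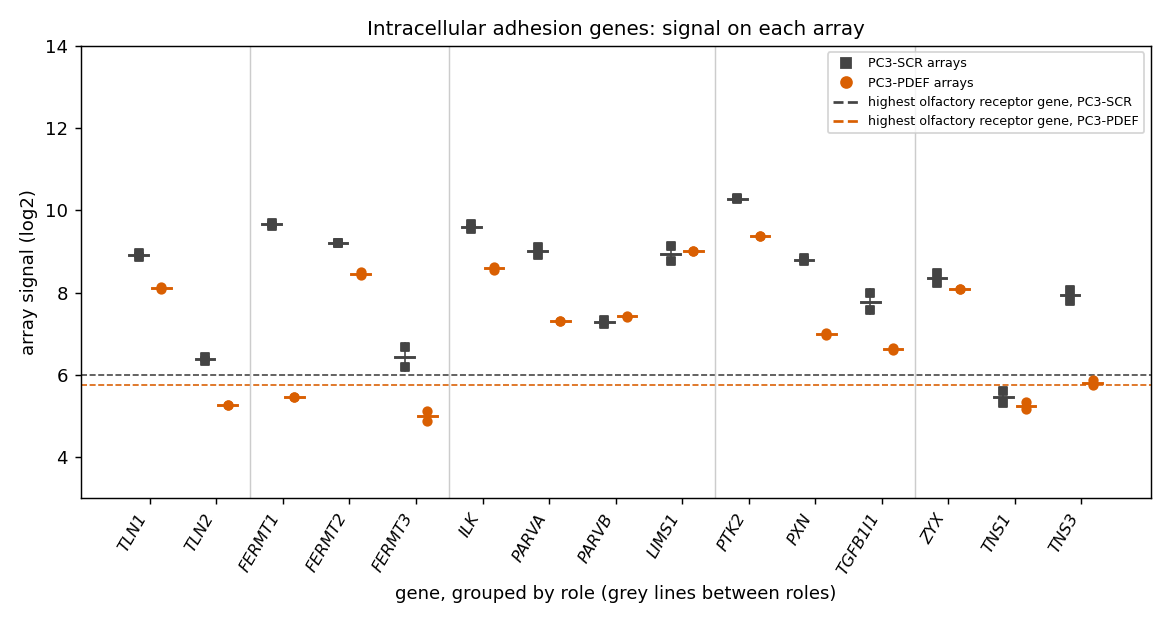
Log2 array signal (vertical axis) of the 15 intracellular adhesion genes (horizontal axis) on the PC3-SCR (squares) and PC3-PDEF arrays (circles). Lines are group means and bars SDs (n = 2). FERMT1 drops from 9.69 and 9.63 to 5.46 and 5.47, below the dashed gauge line of PC3-PDEF at 5.75, while FERMT2, PARVB and LIMS1 stay above both lines.

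Other genes of adhesion sites, from a list of 86 of which 77 were measured, were also lower more often than higher. There were 37 falls, 17 rises and 23 genes that missed the threshold, with a median log2 fold change of -0.22. That is 48.1% lower and 22.1% higher, beside 24.0% and 26.7% of all genes. The actin linkers VCL, ACTN1 and ACTN4, encoding vinculin and alpha-actinins, had log2 fold changes of -1.44, -1.81 and -1.28, all past the threshold. The largest falls were those of CSRP1, a LIM protein gene (-3.23), the insulin receptor adaptor gene IRS1 (-2.58) and BCAR3, whose protein binds the adaptor p130Cas (-2.01). The largest rises were those of the hyaluronan receptor gene LAYN (2.73), PEAK1, a pseudokinase gene (1.02), and CSK, the kinase that restrains SRC (1.02). LAYN in PC3-SCR, IRS1 in PC3-PDEF and CSRP1 on 1 PC3-PDEF array were not above the gauge, which leaves the size of their changes open to error. VCL, ACTN1 and ACTN4 were named after their values were seen.

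Genes of integrin ligands were also lower more often than higher. For 51 measured of 54 listed there were 32 falls, 6 rises and 13 genes that missed the threshold, with a median log2 fold change of -0.59. That is 62.7% lower and 11.8% higher, beside the same shares of all genes as above. The largest falls were those of TGFBI, an RGD-bearing matrix protein gene (-4.98), COL6A3, a collagen VI chain gene (-3.92), and LAMB3, the beta chain gene of laminin-332 (-3.9). The rises were led by those of the laminin chain gene LAMA1 (2.5) and of the basement membrane linker genes NID2 (2.15) and NID1 (1.87). LAMA1, NID2 and NPNT were not above the gauge in PC3-SCR. FN1, the fibronectin gene, fell by 2.12, and TNC, the tenascin gene, fell by 3.06. NPNT encodes nephronectin, the ligand of the ITGA8 pair, and rose by 1.74, while ITGA8 itself was below the gauge on all arrays. FN1, TNC and NPNT were named after their values were seen.

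**Figure D4:**
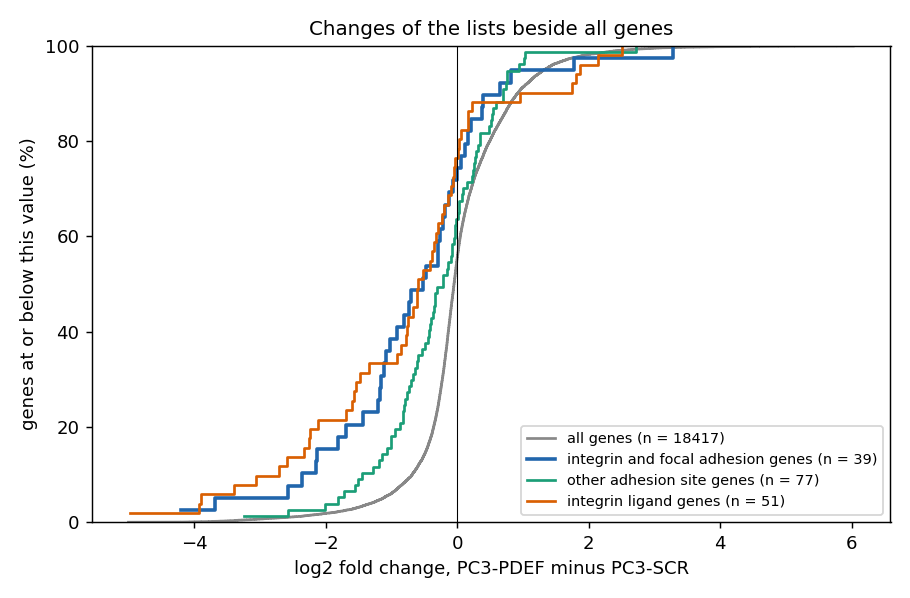
Share of genes in percent (vertical axis) at or below each log2 fold change between PC3-PDEF and PC3-SCR (horizontal axis), for all 18417 genes, the 39 integrin and focal adhesion genes, 77 other adhesion site genes and 51 integrin ligand genes. Over most of their range the curves of the lists lie to the left of that of all genes, with medians of -0.53, -0.22 and -0.59 against -0.05.

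Most of the larger changes did not rest on 1 array. Of the 29 genes called, 18 were called in every fit with 1 array left out, and these include 15 of the 17 that changed at least 2-fold, all but FERMT3 and TGFB1I1. Across these fits 16 to 21 genes were lower and 3 to 5 higher.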

How the data were processed

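RNA of 4 arrays, 2 PC3-PDEF and 2 PC3-SCR, was compared. Per the submitters' processing notes, the authors used Transcriptome Analysis Console, and they deposited signals of 33297 probe sets whose log2 scale was inferred from their range. The sources read state neither its version nor how background and arrays were adjusted. Array medians lay close together, at 5.41 to 5.46. Any scaling between arrays would hide a shift common to all genes, and no further scaling was applied.

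Probe sets with 1 symbol in the platform annotation (19460) were kept, and those with several (1754) or not listed (12083) were not used. Symbols were updated by gene ID (99.8% found). The probe set with the highest mean stood for a gene, with no filter on low signals. limma 3.58.1 in R 4.3.3 (lmFit, eBayes, 2 residual and 4.23 prior degrees of freedom, two-sided) was tested on simulated data. Members called at least 2-fold are described in full, smaller changes with their size, and of the other lists the 3 largest rises and falls. Members and lists were chosen with earlier results of these data known. Alternatives were quantile normalization, median centring, a level filter, probe set means, a variance trend, a replicate block and leaving out each array. The number of arrays limits the precision. Same-numbered arrays are not stated to share a culture, and over all genes the correlation of their deviations was 0.02.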

Additional observations from a re-analysis of the deposited data

How the results depend on the processing

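Quantile normalization, median centring, probe set means, a variance trend and the replicate block left 20 to 24 of the 39 genes lower and 5 to 6 higher. Among genes above the median level alone, with fewer genes tested, 15 members were lower and 1 higher with a median of -1.02, and 3 ligand genes were higher. Leaving out 1 array at a time gave 5336 to 6460 changed genes in all (9337 with all arrays), 3 to 5 members higher (6), a median of -0.71 to -0.50, 9 to 11 other adhesion site genes higher (17) and 24 to 30 lower (37). The fewest changed genes were found without PC3-PDEF replicate 2 (5336) and replicate 1 (5670), and the fewest members higher without PC3-SCR replicate 2 or PC3-PDEF replicate 2 (3 each). The median without PC3-PDEF replicate 2 was -0.71. With the replicate number as a block, 7974 genes changed, 20 members were lower and 5 higher, and ITGA11, ITGB6, ITGB7 and ITGB8 lost their calls (adjusted p from 0.0605 to 0.0908). The direction turned for genes that did not pass the test: ITGAL after median centring (-0.065) and from -0.12 to 0.13 with 1 array left out, ITGAX after quantile normalization (0.0037), and LIMS1 after median centring (-0.005) and from -0.12 to 0.24 with 1 array left out. The cause was not tested. ITGA11 and ITGB7 also lost their calls with a variance trend (0.0724 and 0.0880), and ITGB8 after median centring (0.0538).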
